A study of Saccharomyces cerevisiae with 4 samples.

Results

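NRT1, THI7, THI72, FUR4 and FUI1 are related genes of budding yeast, Saccharomyces cerevisiae, that encode plasma membrane permeases for vitamins and pyrimidines. These 5 genes were taken by systematic name (YOR071C, YLR237W, YOR192C, YBR021W and YBL042C) from the 6690 reading frames listed for each library, and all 5 were found. In the R64 annotation NRT1 and THI72 lie on chromosome XV, THI7 on XII and FUR4 and FUI1 on II, each as 1 coding exon of 1797 to 1920 bases. The set was chosen by the FPKM difference of NRT1 between the genotypes of this series, in which NRT1 was higher in the deletion strain, so that difference is described here and not tested. The other 4 genes were taken as relatives of NRT1 and not for their own values, but with earlier results of these data known.

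The libraries came from wild-type yeast and from a double deletion of SIR2 and HST1, with 2 libraries of each genotype. Both strains were haploid cells of the alpha mating type with the alleles ura3-1, trp1-1, his3-11, can1-100, the double-mutant leu2 allele (leu2-3 with leu2-112) and a lys2 deletion. At HMR the labels give hmr::ura3 for wild type and hmrD::ura3 for the deletion strain, and only the wild-type label also gives GAL. In the deletion strain TRP1 replaced SIR2 and KanMX replaced HST1, so any effect of these markers, or of the label differences at HMR and GAL, cannot be told apart from that of the deletions. Cells were grown in rich glucose medium (YPD) at 30 °C, diluted to an optical density of 0.3 and harvested at 1. The series calls the libraries of a genotype technical replicates, so p-values measured the spread between these libraries and not between cultures. Each genotype was represented by 1 strain.

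The permeases belong to the nucleobase cation symporter family 1 (NCS1), whose members carry small nitrogen-containing rings across the membrane with protons. Nrt1 takes up nicotinamide riboside, a precursor of NAD+, and carries thiamine weakly. Thi7 is the main thiamine permease and Thi72 is a close relative of it, while Fur4 imports uracil and Fui1 imports uridine. Sir2 and Hst1 are paralogous deacetylases that consume NAD+. Hst1 is brought to DNA by the repressor Sum1 and is known for holding genes of NAD+ synthesis at low levels.

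NRT1, THI7 and THI72 are close copies of each other, so the sequences they share are shown first, because reads from such a stretch cannot be assigned to 1 gene. In the RefSeq R64 genome the coding sequences of NRT1 and THI7 were 83.8% identical over 1797 aligned bases, those of NRT1 and THI72 also 83.8%, and those of THI7 and THI72 84.1%. NRT1 shared only 60.5% with FUR4 and 57.7% with FUI1, and FUR4 and FUI1 shared 62.0%. The longest run without a difference between NRT1 and THI72 was 106 bases. In NRT1 it lies at coding positions 1295 to 1400, counted from the A of the start codon. THI7 differs from that run at 9 positions, which are in capitals. The sequences are on the coding strand, which is the minus strand of chromosome XV for NRT1 and THI72 and the plus strand of chromosome XII for THI7.
NRT1 and THI72: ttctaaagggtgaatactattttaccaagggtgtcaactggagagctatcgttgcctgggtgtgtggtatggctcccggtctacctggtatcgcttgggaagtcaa
THI7: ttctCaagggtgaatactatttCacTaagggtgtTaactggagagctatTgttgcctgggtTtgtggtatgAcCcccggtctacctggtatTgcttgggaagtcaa

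Such shared stretches made up a small part of each gene. Of the 50-base windows of NRT1, 3.43% occurred a second time in the R64 genome, against 1.6% for THI7, 4.68% for THI72 and 0% for FUR4 and FUI1. The sources used here do not give the read length or the handling of reads with several matches.

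Values were FPKM, fragments scaled to transcript length and to the size of the library, so that levels of different genes can be compared within a library. FUI1 was the highest of the 5 genes in every library and THI72 the lowest. In wild type the order was FUI1, FUR4, NRT1, THI7, THI72, and in the deletion strain NRT1 stood second, above FUR4. The libraries of neighbours in these orders did not overlap in either genotype. The closest pair was FUI1 and NRT1 in the deletion strain, where the mean of FUI1 was 1.08 times that of NRT1 and the lowest FUI1 value was 1.2 FPKM above the highest NRT1 value. That gap was smaller than the SD of either gene in that strain, 4.04 FPKM for FUI1 and 4.37 FPKM for NRT1.

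In wild type NRT1 was listed at 28.6 and 28.7 FPKM, and with both deacetylase genes deleted at 83.0 and 89.2 FPKM. Both deletion libraries lay far above both wild-type libraries, and the replicates differed by a factor of 1.01 in wild type and 1.07 in the double mutant. The mean was 28.7 ± 0.12 FPKM in wild type and 86.1 ± 4.37 FPKM in the deletion strain (SD, n = 2 each), a ratio of 3.01. On the scale of log2(FPKM + 1) the difference was 1.55, and 153 of the 6370 genes tested had a larger one. In bulk cultures more transcript per cell and more expressing cells cannot be told apart. In its library NRT1 exceeded 43% and 43.4% of all listed names in wild type, and 69.8% and 71.2% after the deletion.

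THI7, the thiamine permease gene with 83.8% coding identity to NRT1, did not pass the test. Its wild-type libraries gave 16.8 and 15.8 FPKM and its deletion libraries 19.0 and 20.7 FPKM. Both deletion libraries lay above both wild-type libraries, by a factor of 1.22 between means. The log2(FPKM + 1) difference was 0.27 with an SE of 0.08 (limma, Benjamini-Hochberg adjusted p = 0.103).

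THI72, whose product is a thiamine permease relative, was the least expressed of the 5. Its values were 4.69 and 5.14 FPKM in wild type, against 4.08 and 4.06 FPKM after deletion. Both deletion libraries lay below both wild-type libraries. The log2(FPKM + 1) difference was -0.22 with an SE of 0.12 and did not pass (limma adjusted p = 0.27). After quantile normalization between libraries it was -0.64 and passed (limma adjusted p = 0.0464).

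FUR4, the uracil permease gene, stood at 35.9 and 38.0 FPKM in wild type, against 34.5 and 34.0 FPKM in the double mutant. The genotypes did not overlap, but the means differed by a factor of only 1.08 (log2(FPKM + 1) difference -0.11, SE 0.06, limma adjusted p = 0.304). FUI1, the uridine permease gene, had 102 and 105 FPKM in wild type, against 90.4 and 96.1 FPKM in the double mutant. Its deletion libraries were the lower ones, by a factor of 1.11 between means, and the difference of -0.15 with an SE of 0.06 did not pass (limma adjusted p = 0.18).

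**Figure D1:**
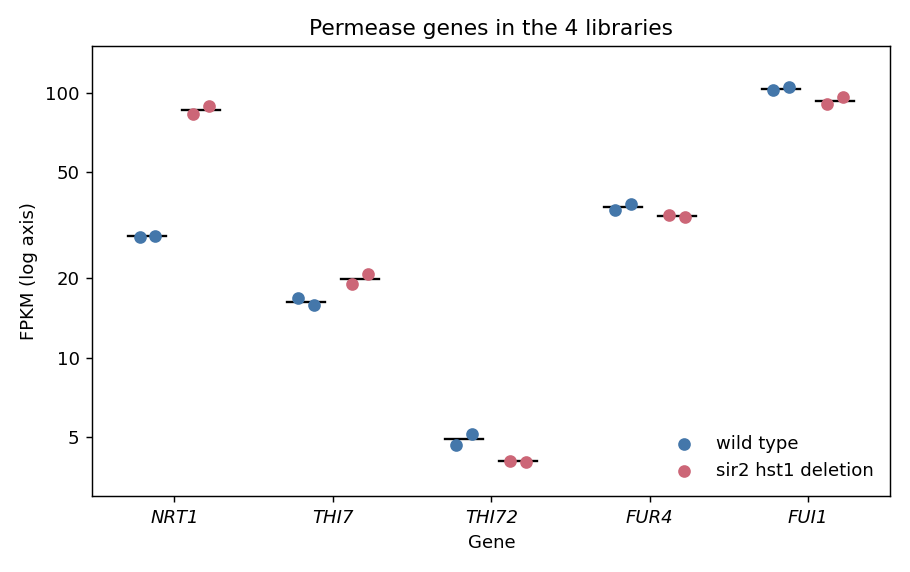
FPKM of the 5 permease genes on a log axis, with 1 point per library and a bar at the mean of each genotype (n = 2 libraries each). The NRT1 points of the deletion strain lie at 83.0 and 89.2 FPKM, above FUR4 and just under FUI1, whereas the other 4 genes keep their wild-type order.

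The genotypes of NRT1 did not overlap, but NRT1 was chosen for its rise and is left out of this count. Of the other 4 genes, 4 had genotypes that did not overlap, with THI7 above and THI72, FUR4 and FUI1 below in the deletion strain. This count is read against the 62.3% of the 6370 tested genes that also had genotypes without overlap, 30.5% with the deletion libraries above and 31.7% below. By the adjusted p of limma, 9.54% of tested genes differed, 6.75% higher and 2.79% lower in the deletion strain. Of the 4 permeases other than NRT1, 0 passed in either direction, and 1 of them, THI7, had an unadjusted limma p under 0.05, as did 30.2% of all tested genes. Higher genes made up 70.7% of all calls, and 54.8% after quantile normalization. NRT1 made up 15.2% and 14.9% of the summed FPKM of the 5 genes in the wild-type libraries and 35.9% and 36.6% in the deletion libraries. Without NRT1 the sum of the other 4 was 159 and 164 FPKM in wild type, against 148 and 155 FPKM in the double mutant.

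The labels were checked in the same libraries. SIR2 (23.8 to 24.3 FPKM in wild type) and HST1 (57.8 to 58.2 FPKM) were listed at 0 wherever they had been deleted. SUM1, which encodes the partner of Hst1, had 22.5 and 24.3 FPKM in wild type, against 29.5 and 30.5 FPKM in the double mutant (limma adjusted p = 0.0501), and passed under 3 of 12 alternatives (adjusted p from 0.0474 to 0.213 over the 12). RFM1, listed with the same complex, went the other way and did not pass (limma adjusted p = 0.149). It had 26.7 and 25.3 FPKM in wild type, against 22.7 and 23.0 FPKM in the double mutant. The alpha-cell markers MFALPHA1, STE3 and SAG1 ranged from 158 to 2791 FPKM over the 4 libraries. The a-cell markers MFA1, MFA2 and STE2 ranged from 0 to 68.1 FPKM, and MFA1 was at 35.3 FPKM in 1 wild-type library and listed at 0 in the other. Of these 6 markers SAG1 was the only one that passed, lower in the deletion strain (limma adjusted p = 0.00359). All 3 alpha-cell markers were lower and MFA2 was higher at an unadjusted limma p under 0.05, beside 14.1% and 16.1% of all tested genes. MFALPHA1 also passed after quantile normalization (limma adjusted p = 0.0434). Over the 12 alternatives the log2 difference ranged from -1.21 to 3.98 for MFA1 and from 0.45 to 1.57 for MFA2. Both upper values came without wild-type replicate 1.

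The gene next to NRT1 on its upstream side was higher in the deletion strain as well. In R64 the next annotated gene upstream of NRT1 is YOR072W, an uncharacterized reading frame of 315 bases on the opposite strand, and 225 bases separate the start codons. The wild-type values of YOR072W were 9.10 and 5.92 FPKM and its values in the double mutant were 22.7 and 20.2 FPKM. Both deletion libraries lay more than 2-fold above both wild-type libraries (log2(FPKM + 1) difference 1.42, SE 0.20, limma adjusted p = 0.0213). This call was lost without deletion replicate 1 (adjusted p = 0.106) or 2 (0.0911) and without the filter on low values (0.0793). YOR072W-A, which the R64 note on YOR072W calls a dubious gene that YOR072W partially overlaps and which was named after its values were seen, went from 12.1 and 6.43 FPKM to 25.0 and 31.3 FPKM (adjusted p = 0.0453). That call was lost under 6 of 12 alternatives, among them the omission of deletion replicate 1 (0.118) or 2 (0.145), no filter (0.114) and the replicate block (0.0628). The use of strand in counting is not given, so reads of these overlapping frames cannot be told apart.

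The stretch between NRT1 and YOR072W is shown because both genes are transcribed away from it. It is written on the minus strand of chromosome XV in R64, in the direction of NRT1. The capitals CAT at its left end are the start codon of YOR072W read on the opposite strand, and the capitals ATG at its right end are the start codon of NRT1.
NRT1 upstream: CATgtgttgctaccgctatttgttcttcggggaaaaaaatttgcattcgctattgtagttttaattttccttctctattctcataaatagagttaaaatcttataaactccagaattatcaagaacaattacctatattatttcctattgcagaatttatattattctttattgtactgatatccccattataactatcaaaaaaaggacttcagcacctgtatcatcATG

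This stretch was searched on both strands for GNCACAAA and GNCGCAAA, letters of the middle sporulation element that Sum1 binds. Neither occurs in the 225 bases before the start codon of NRT1, THI7, THI72, FUR4 or FUI1, nor in those before TNA1. Of 6020 upstream windows of that length in R64, 5.58% hold at least 1 of these motifs. A match to one of them cannot match the other at the same position. GATAAG, the core site of the GATA factors of nitrogen control, is in 11.3% of windows and likewise in none of the 5. Among these 5 the window of 225 bases covered the whole stretch to the next protein-coding gene only for NRT1. That stretch was 249 bases for THI7, 835 for FUR4, 986 for FUI1 and 3420 for THI72, and its remainder was not searched. Upstream of TNA1, too, only 225 bases were searched. Most windows of this length lack these motifs, so their absence is the common case, and binding of Sum1 was not tested.

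Of the 10 neighbouring genes that were listed by name, 3 rose and 0 fell (limma), beside 6.75% and 2.79% of all tested genes. GYP1 was lower by an unadjusted p under 0.05 alone, and 14.1% of all tested genes were lower at that p. Beside YOR072W the risers were ECM13 and PEX27, and without deletion replicate 1 or 2 the count was 0. YLR236C, which faces away from THI7 across 249 bases, had 5.75 and 4.09 FPKM in wild type, against 5.10 and 8.32 FPKM in the double mutant, and its genotypes overlapped. GAL1, which lies 835 bases upstream of FUR4 on the same strand and encodes galactokinase, stayed between 2.31 and 3.25 FPKM in the 4 libraries (limma adjusted p = 0.875). ECM13, downstream of FUI1 and facing it across 879 bases, went from 8.35 and 8.77 FPKM to 13.7 and 16.4 FPKM (limma adjusted p = 0.0246), while FUI1 itself was lower. ECM13 was lost without deletion replicate 1 (0.0525) or 2 (0.0784) and without the filter (0.0692). YOR192C-C, upstream of THI72 across 3420 bases and named after its values were seen, went from 8.73 and 7.53 FPKM to 16.2 and 14.8 FPKM, but 73.9% of its 50-base windows occur elsewhere in the genome. PEX27, a peroxisome gene and the next after THI72 among names without a suffix, went from 28.0 and 27.8 FPKM to 39.5 and 37.0 FPKM (adjusted p = 0.0221), a call that was lost without any 1 of the 4 libraries. GYP1, downstream of NRT1, had 24.8 and 26.6 FPKM in wild type, against 20.1 and 21.0 FPKM in the double mutant (limma adjusted p = 0.0662). All 5 permease genes lay at least 138.3 kb from a chromosome end, and no annotated gene overlapped any of them in R64.

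**Figure D2:**
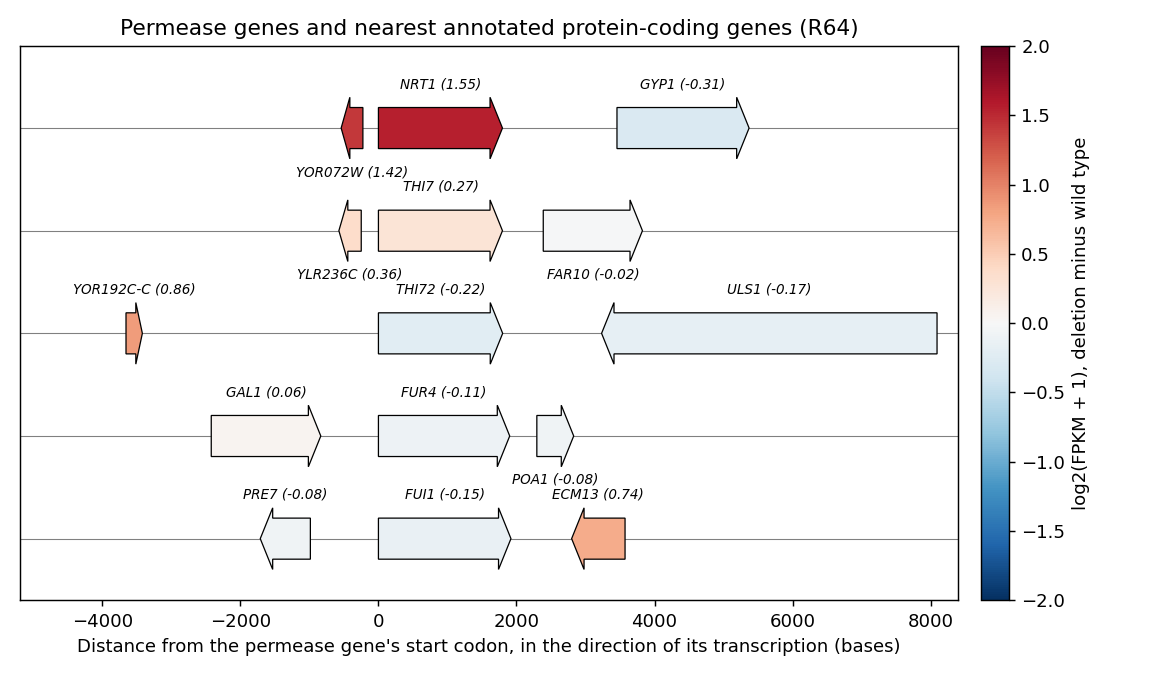
Each permease gene with its nearest annotated protein-coding genes in R64, by distance in bases from the permease's start codon, with arrows in the direction of transcription and colour and numbers for the log2(FPKM + 1) difference, deletion minus wild type. NRT1 (1.55) and YOR072W (1.42) point away from each other across 225 bases, whereas THI7 (0.27) and YLR236C (0.36) have the same layout and small differences.

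Among the other permeases of the family, 2 of 5 rose and 0 fell by limma, beside 6.75% and 2.79% of all tested genes, and 1 was lower by its unadjusted limma p alone. DAL4, the allantoin permease gene, went from 8.51 and 8.45 FPKM in wild type to 24.9 and 24.5 FPKM in the deletion strain. The replicates were almost equal and the ratio of means was 2.91 (log2(FPKM + 1) difference 1.44, SE 0.07, limma adjusted p = 0.000646). Its coding sequence was 69.0% identical to that of FUR4, the closest relative of DAL4 in the set, and 60.1% to that of NRT1. FCY21, a putative purine-cytosine permease gene, rose from 67.3 and 65.5 FPKM to 105 and 107 FPKM (limma adjusted p = 0.00367).

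FCY2, the main purine-cytosine permease gene, had 691 and 730 FPKM in wild type, against 585 and 621 FPKM in the double mutant, the highest level in the family. Its libraries did not overlap, but it did not pass (limma adjusted p = 0.0762), except after quantile normalization (0.0428). FCY22 had 7.86 and 8.70 FPKM in wild type, against 9.34 and 8.23 FPKM in the double mutant, with overlapping genotypes. TPN1, the vitamin B6 permease gene, stayed between 68.6 and 69.6 FPKM in the 4 libraries (limma adjusted p = 0.877). FCY2, FCY21 and FCY22 have 6.63%, 1.89% and 8.55% of their 50-base windows elsewhere in the genome. The median log2(FPKM + 1) difference of these 5 genes was 0.08, against -0.01 over all genes tested.

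None of the listed genes that handle nicotinamide riboside after uptake rose at a limma adjusted p under 0.05. NRK1, whose product phosphorylates nicotinamide riboside, had 54.4 and 47.3 FPKM in wild type, against 63.3 and 60.6 FPKM in the double mutant. Its deletion libraries were the higher ones, but the difference did not pass (limma adjusted p = 0.111). URH1, which encodes the hydrolase that splits nicotinamide riboside and uridine, went from 72.2 and 79.4 FPKM to 94.6 and 101 FPKM and also missed the threshold (adjusted p = 0.0532). The nucleoside phosphorylase gene PNP1 had 101 and 98.9 FPKM in wild type, against 99.5 and 105 FPKM in the double mutant, with overlapping genotypes (adjusted p = 0.777). FUN26, which encodes a vacuolar nucleoside transporter, had 43.9 and 47.6 FPKM in wild type, against 48.5 and 52.3 FPKM in the double mutant (adjusted p = 0.278).

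Of the 14 genes in the list of nicotinamide riboside use and NAD+ salvage 1 rose and 3 fell, beside 6.75% and 2.79% of all tested genes, and the median log2(FPKM + 1) difference was 0.01. Counted by an unadjusted limma p under 0.05, 3 were higher and 3 lower, beside 16.1% and 14.1% of all tested genes. The riser was TNA1, the nicotinic acid permease gene, at 334 and 341 FPKM in wild type, against 1851 and 1992 FPKM in the double mutant. The falling genes were PNC1, which encodes the nicotinamidase (449 and 434 FPKM to 321 and 318 FPKM, limma adjusted p = 0.00854), and the phosphatase genes PHO8 (adjusted p = 0.016) and ISN1 (0.0134). Without wild-type replicate 1 or 2 the list had 0 falling genes, and without deletion replicate 1 or 2 it had 1 or 2. TNA1 rose in each of these cases.

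Of 16 thiamine genes other than THI7 and THI72 5 rose and 1 fell, beside 6.75% and 2.79% of all tested genes, with a median log2(FPKM + 1) difference of 0.22. By an unadjusted limma p under 0.05, 6 were higher and 2 lower, beside 16.1% and 14.1% of all tested genes. THI4, for thiazole synthesis, went from 3.94 and 3.74 FPKM to 21.9 and 22.9 FPKM (limma adjusted p = 0.000312). THI2, which encodes a transcriptional activator of thiamine genes, went from 4.78 and 3.38 FPKM to 7.94 and 9.28 FPKM (adjusted p = 0.0456) but passed under only 4 of 12 alternative settings, with adjusted p from 0.0142 to 0.144. PDC2, the gene of another activator of this pathway, stayed between 20.1 and 20.8 FPKM (adjusted p = 0.874), and THI3, a regulator, between 26.8 and 28.4 FPKM (adjusted p = 0.764). The risers THI5 and THI12 were under 5 FPKM in every library, and 85% and 70.6% of their 50-base windows occur elsewhere in the genome. THI5 (adjusted p = 0.0495) passed under 3 of the 9 alternatives in which it was tested and was lost without wild-type replicate 1 (0.098) or 2 (0.123). THI12 (adjusted p = 0.024) passed under 7 of 9 and was lost without the filter (0.0567) and after quantile normalization (0.0578). PHO3, a thiamine-repressed acid phosphatase gene, fell from 192 and 206 FPKM to 122 and 139 FPKM (adjusted p = 0.0214), a call lost without the filter (0.0687), wild-type replicate 2 (0.0661) or deletion replicate 1 (0.0637). The number that rose was 4 and 3 without wild-type replicates 1 and 2, 1 without either deletion replicate and 2 after quantile normalization. Without a deletion replicate 14 of the 16 genes were tested, since THI5 and THI12 missed the filter.

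Of 15 genes of uracil and uridine metabolism 0 rose and 1 fell by limma, beside 6.75% and 2.79% of all tested genes. At an unadjusted limma p under 0.05, 4 were higher and 3, URA3 among them, were lower, beside 16.1% and 14.1% of all tested genes. FUR1, which encodes the enzyme that converts uracil to UMP, had 731 and 724 FPKM in wild type, against 750 and 943 FPKM in the double mutant (adjusted p = 0.297). Deletion replicate 2 was the high library, and without deletion replicate 1 FUR1 passed (adjusted p = 0.0413). URK1, the uridine kinase gene, had 73.3 and 71.1 FPKM in wild type, against 82.1 and 90.5 FPKM in the double mutant (adjusted p = 0.0942). PPR1, which encodes the activator of pyrimidine synthesis genes, had 11.8 and 12.0 FPKM in wild type, against 13.4 and 13.5 FPKM in the double mutant (adjusted p = 0.203). The gene that fell was URA3 (302 and 309 FPKM to 250 and 242 FPKM, adjusted p = 0.0309), a marker locus in these strains. Leaving out any 1 of the 4 libraries ended that call. It was also lost without the eBayes trend (limma adjusted p = 0.0533) and with the replicate block (0.067). The median log2(FPKM + 1) difference of the list was -0.01, as over all genes tested.

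Transporters of other vitamins went in both directions, with 2 of 8 higher and 1 lower by limma, beside 6.75% and 2.79% of all tested genes. Beside TNA1 the riser was THI73, a transporter-like gene of the thiamine group, which went from 8.95 and 7.69 FPKM to 19.9 and 19.3 FPKM (limma adjusted p = 0.00415) and was lost without deletion replicate 1 (0.056) or 2 (0.0504). MCH5, the riboflavin transporter gene, fell from 233 and 216 FPKM to 139 and 127 FPKM (limma adjusted p = 0.00747). VHT1 for biotin stayed between 21.6 and 24.2 FPKM, FEN2 for pantothenate between 55.5 and 63.6 FPKM and BIO5 for a biotin precursor between 6.62 and 8.60 FPKM, and none of these 3 passed.

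**Figure D3:**
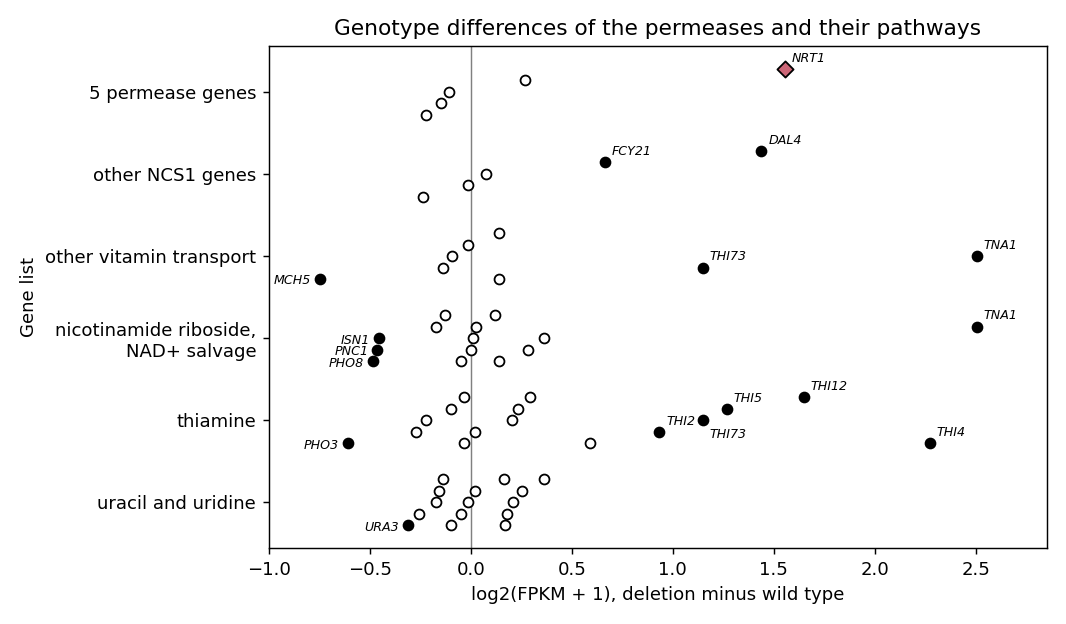
Differences in log2(FPKM + 1), deletion minus wild type, of the 5 permease genes and of 5 gene lists, with filled circles for genes past a limma adjusted p of 0.05, open circles for the rest and a diamond for NRT1, which was not tested. DAL4 (1.44) and TNA1 (2.50) lie on the same side as NRT1 (1.55), and the uracil and uridine genes lie close to 0. TNA1 and THI73 stand in 2 lists, and the vertical offset within a list has no meaning.

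The genes most like NRT1 over the 4 libraries were sought by the Euclidean distance between log2(FPKM + 1) values after each gene's own mean was removed. Among 6087 genes with at least 5 FPKM in the higher genotype, the 6 nearest were PBI1, YFL040W, DPI8, TEP1, YGL258W-A and DAL4, at distances from 0.07 to 0.146. PBI1 was the nearest, with 4.24 and 4.36 FPKM in wild type, against 13.7 and 15.8 FPKM in the double mutant. YGL258W-A had nearly the same levels as NRT1, 28.7 and 28.2 FPKM against 89.6 and 84.4 FPKM. DAL4 is the 1 gene of the 6 that belongs to the same permease family. With 2 groups of 2 libraries this likeness mostly ranks genes by the size of their difference, so it is a description over 4 libraries and no test.

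**Figure D4:**
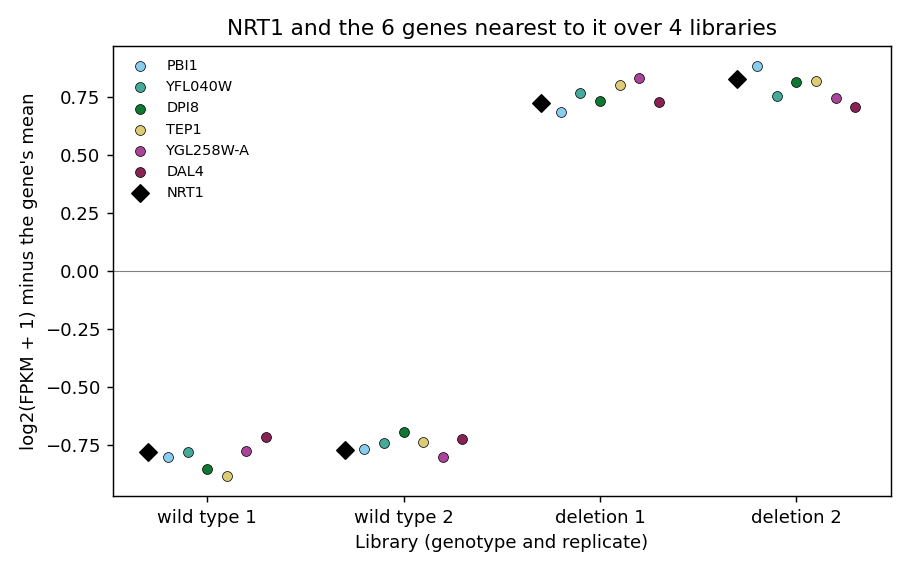
Values of log2(FPKM + 1) minus each gene's mean over the 4 libraries, for NRT1 (diamonds) and the 6 nearest genes (circles), by library. All 7 genes are below 0 in both wild-type libraries and above 0 in both deletion libraries, and the genes were chosen for this.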

How the data were processed

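Total RNA was sequenced from 2 wild-type and 2 sir2 hst1 deletion libraries. The authors deposited 1 FPKM value per reading frame and library, made with TopHat2 2.0.10 and Cuffnorm 2.2.1 per the submitters' processing notes. The sources used here do not give the genome build, annotation or scaling between libraries. FPKM sums ranged from 3419038 to 3662426 and medians from 36.9 to 37.3, so absolute depth is unknown and no counting interval is given. No nonzero value was identical between replicates.

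A gene was tested if 2 libraries or more gave it 1 FPKM or more, which held for 6370 of 6690 names and for all 5 permease genes. Values of log2(FPKM + 1) were fitted by genotype alone with limma 3.58.1 (R 4.3.3, eBayes with trend), and p-values were adjusted over all genes tested by the Benjamini-Hochberg method. A gene passed, rose or fell at an adjusted p under 0.05. The added 1 shrinks log2 differences of low genes, and folds are ratios of mean FPKM. The fit was tested on simulated data. Names were matched to locus tags of RefSeq R64 (6007 matched, 683 did not), which also gave sequences, neighbours and distances, by gene and not by coordinates. Alignments used Biopython 1.88 in Python 3.11.15. The genes and lists were chosen with earlier results of these data known. Genes named were those of the lists and the 6 nearest to NRT1, except YOR072W-A and YOR192C-C. Alternatives were a pseudocount of 0.1 or 5, no filter or one of 5 FPKM, quantile or median-ratio scaling, no trend, a replicate block, and omission of each library in turn. A lone library is then assumed to vary like the other genotype.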

Additional observations from a re-analysis of the deposited data

How the results depend on the processing

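NRT1 was chosen for its rise in these same libraries, so its values under other settings are a description and no test. It was higher in the deletion strain under all 12 alternatives. Its log2 difference of 1.55 was 1.44 with a pseudocount of 5, which shrinks every difference by construction, and ranged from 1.50 to 1.60 when 1 library was left out. THI7, FUR4 and FUI1 kept their direction and did not pass under any of the 12, and THI72 under 10 of the 11 that could be run, since a minimum of 5 FPKM left it out. After quantile normalization THI72 was at -0.64 and passed, and the cause was not tested. DAL4 and FCY21 rose under all 12. The number of genes higher over the whole table ranged from 184 to 377 and of those lower from 47 to 83 when 1 library was left out, which also leaves fewer residual degrees of freedom, against 430 and 178 with all. The lower genes numbered 76 without the filter and 296 after quantile normalization, and the cause was not tested. With the replicate block 360 genes were higher and 111 lower, and no call of a permease gene changed. The deviations of same-numbered libraries had a correlation of -0.0944 across genes, so no strong deviation was shared by libraries of the same number. This does not tell whether such libraries were prepared together. The neighbours of the permease genes that rose went from 3 to 0 without the filter, and the thiamine genes that rose from 5 to 3 with a pseudocount of 0.1, a minimum of 5 FPKM or the replicate block. The minimum of 5 FPKM left 12 of the 16 thiamine genes in the test, without THI5 and THI12. With 2 technical replicates per genotype and unknown depth, the SE of the 4 tested permease differences was 0.06 to 0.12 on the log2 scale.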
